A study of Homo sapiens with 8 samples.

Results

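The genes examined here encode the proteins of the cytosolic ribosome, in MP38 uveal melanoma (UM) cells treated with HDAC or BET inhibitors. They were chosen by gene symbol, as RPL or RPS followed by a number, together with the stalk genes RPLP0, RPLP1 and RPLP2 and the gene RPSA; pseudogenes, RPS6K kinases and the Y-linked copies of RPS4 were left out. Of 35238 symbols in the count table, 85 matched, 1 of them (RPS10L) is a pseudogene in RefSeq, and 84 genes remained, 32 of the small and 52 of the large subunit. The rule used symbols and no measured value.

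MP38 is a BAP1-mutant UM cell line, so all groups share 1 genetic background. For 24 h the control cells received 0.1% DMSO alone. The cells of the other 3 groups received the same 0.1% DMSO with a drug: romidepsin at 40 nM, quisinostat at 40 nM, or mivebresib at 1200 nM. The first pair inhibit histone deacetylases (HDAC), and the last keeps BET proteins off acetylated chromatin. Each group had 2 libraries of bulk, strand-specific mRNA sequencing from 2 culture wells, so every p-value measures the spread between wells of a single line. The pigment cell genes TYRP1, PMEL, MLANA, MITF and SOX10 were counted in every library (TYRP1 with 84041 to 112687 counts), 6 of 7 melanocytic markers passed the filter on low counts, and DCT was at 0 to 5 counts. With romidepsin, quisinostat and mivebresib 1, 3 and 4 of the 6 were called lower than in the control. Of markers of other cell types, 2 of 6 for fibroblasts, 1 of 5 for immune cells and 0 of 4 for epithelium passed that filter.

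Most ribosomal proteins are needed in equal numbers, and ribosomal protein mRNAs are among the most abundant in a growing cell. Most of them begin with a run of pyrimidines, the 5′ terminal oligopyrimidine (5′ TOP) motif, through which mTOR and the RNA-binding protein LARP1 regulate their translation and stability. Some of the proteins also act outside the ribosome. A few genes have a close paralogue, such as RPS27L beside RPS27 or RPL26L1 beside RPL26, whose expression often differs from that of the common gene.

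The pyrimidine run at the transcription start is shown for 3 typical members and for 3 pairs of a common gene and its paralogue, because the paralogues departed from the rest of the family in the counts below. Each line gives 30 bases, 15 on each side of the RefSeq start (GRCh38.p14), with capitals for the longest run of C and T within 3 bases of that start.
RPL41, chr12:56116618-56116647, plus strand: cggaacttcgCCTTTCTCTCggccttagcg
RPLP0, chr12:120201097-120201126, minus strand: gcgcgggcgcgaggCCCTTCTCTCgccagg
RPS12, chr6:132814554-132814583, plus strand: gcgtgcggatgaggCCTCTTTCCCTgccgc
RPS27, chr1:153990747-153990776, plus strand: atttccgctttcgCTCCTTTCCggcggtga
RPS27L, chr15:63157463-63157492, minus strand: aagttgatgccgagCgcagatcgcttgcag
RPL26, chr17:8383179-8383208, minus strand: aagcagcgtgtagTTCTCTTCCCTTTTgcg
RPL26L1, chr5:172958714-172958743, plus strand: agtcttccaggggTCggcgaacgaaacgcg
RPL22, chr1:6199581-6199610, minus strand: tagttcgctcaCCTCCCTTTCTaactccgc
RPL22L1, chr3:170870181-170870210, minus strand: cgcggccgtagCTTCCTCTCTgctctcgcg

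RPL41, RPLP0, RPS12, RPS27, RPL26 and RPL22 each held an unbroken run of 9 bases or more. RPS27L had a single pyrimidine and RPL26L1 a pair, while RPL22L1 kept a run of 10. RPL26L1 has a second listed start, whose run was also of 2 bases. Of the 67 members with a listed start, 56 (83.6%) had a run of at least 5 bases and 49 (73.1%) of at least 8, against 33.9% and 12% of 27305 genes in the same table. In the 300 bases from 250 upstream of the start, on both strands, the letters CCGGAAG, bound by ETS factors such as GABPA, were found in 24 of the 67 members (35.8%; 12.2% of all genes). The letters AAGATGGC, bound by YY1, were found in 7 (10.4%; 3.52%) and the E-box CACGTG, bound by MYC, in 5 (7.46%; 8.77%). A match of letters is a description and not a binding site. The other 9 of the 11 members with runs under 5 bases were RPL4, RPL9 and RPL10L (1 base each), RPL7L1, RPL27, RPS15 and RPS29 (2 each), and RPL15 and RPL17 (at most 3), both called members and members not called. A listed start can differ from the one these cells used.

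In this family the 2 control libraries lay farther apart than the pair of any drug, and this gap stands beside every comparison below. The 84 genes took 5.18% of all counts in control library 1 and 3.502% in control library 2. They took 3.125% and 3.724% with romidepsin, 4.26% and 3.621% with quisinostat, and 3.879% and 3.767% with mivebresib. All 6 drug libraries thus lay below control 1, and 5 of them above control 2. Total counts were alike, from 28483235 to 29359024 per library. Counts of the 13 mitochondrially encoded genes took 3.588% in control 1 and 4.458% in control 2, the opposite order. These are shares of a bulk RNA sample, in which fewer cells of a type and less RNA per cell cannot be told apart.

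**Figure D1:**
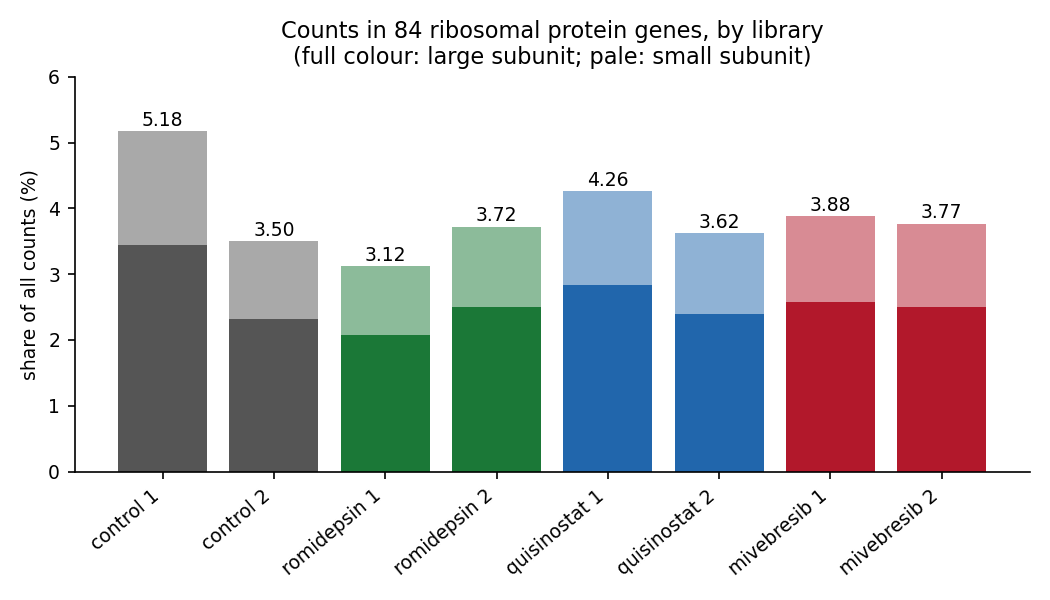
Share of all counts (%) in the 84 ribosomal protein genes, 1 bar per library, colored by group, with large-subunit genes in full color and small-subunit genes pale. Control 1 stands highest at 5.18%, and the romidepsin library 1 lowest at 3.125%.

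Of the 84 genes, 82 passed the filter on low counts. RPL10L had 0 counts in every library, which allows up to 3 counts in each, and RPL39L had 0 to 7 counts. Both are paralogues known from the testis. Counts were put on the CPM scale, relative to each library's total, with TMM factors that set the bulk of genes equal between libraries. On that scale all 82 members were lower in control 2 than in control 1, with a median log2 difference of -0.55, or 1.46-fold. The range ran from -0.05 at RPL7L1 to -0.88 at RPL28, while the median over all 15085 genes tested was 0. RPL28, RPL41 and RPL37 had the widest gaps. RPL28 was at 469.2 CPM in control 1 and 254.2 in control 2. RPL41, which encodes the shortest ribosomal protein, was at 1560 and 885.6, and RPL37, a zinc-binding protein of the large subunit, at 1491 and 853 CPM.

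Replicates of the romidepsin and quisinostat groups differed as a block too. In the romidepsin group 81 of 82 members were higher in library 2, by a median log2 difference of 0.23. In the quisinostat group 81 were lower in library 2, by a median of -0.25. In the mivebresib group 54 were lower and 28 higher, with a median of -0.06. There the median absolute gap was 0.095 in members and 0.13 over all genes. Of all genes, 51.6% were higher in library 2 with romidepsin, and 51.8% and 51.6% lower with quisinostat and mivebresib. In each group the gap went with the coding length of the gene: across the 82 members, Spearman's rho was 0.67 in the control, -0.46 in the romidepsin, 0.59 in the quisinostat and -0.51 in the mivebresib pair, as a description of members that share the same libraries. Other coding genes showed a gradient in the same direction in the control, romidepsin and quisinostat pairs. In the mivebresib pair their gradient was opposite to that of the members. There the median gap of other genes was -0.09 up to 300 bases and 0.09 above 3000 bases. In members it was 0.12 up to 300 bases and -0.11 at 600 to 900 bases. The median gap of the controls was -0.45 for 277 other genes with up to 300 coding bases, -0.16 for 1835 genes of 600 to 900 bases and 0.24 for 1963 genes above 3000 bases. Members lay below the other genes of the same length: -0.64 for the 10 members with up to 300 bases and -0.45 for the 20 members of 600 to 900 bases. What made short transcripts differ between replicate wells was not tested.

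**Figure D2:**
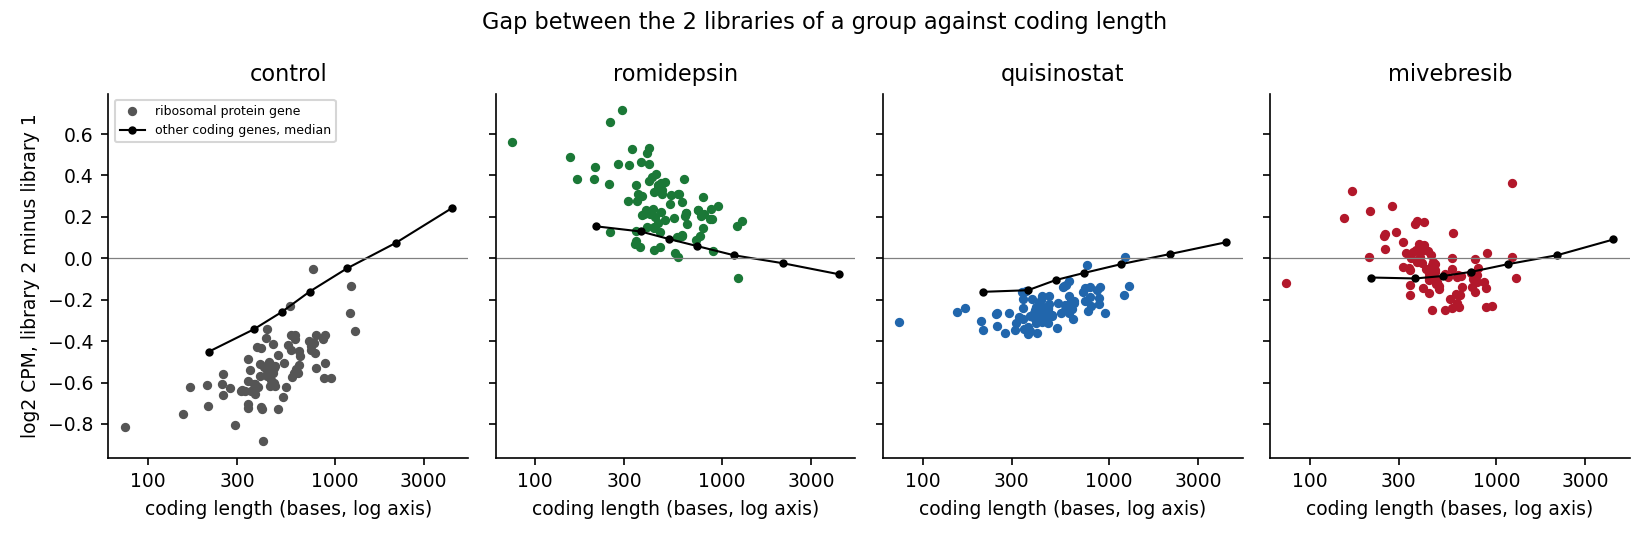
Log2 CPM of library 2 minus library 1 of each group (vertical axis) against coding length in bases (log axis), for 82 ribosomal protein genes (colored points) and the median of other coding genes in length bins (black line, placed at the bin's middle). In the control panel all points lie below 0, while the black line rises from -0.45 to 0.24.

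Between genes, levels are compared per kilobase of coding sequence in the controls. The 77 members that are not paralogues ranged from 93.09 (RPL9) to 16300 (RPL41) CPM per kilobase. RPL41 stood at 20800 and 11810 CPM per kilobase in the control libraries, 8800 and 12980 with romidepsin, 11810 and 9528 with quisinostat, and 12780 and 11760 with mivebresib. RPL37 (4028 on average in the controls) and RPL10 (3712), a late-joining protein of the large subunit, followed. RPL41 has only 75 coding bases, and counts from its untranslated ends weigh more in such a short gene, so its level per coding base is not comparable with that of long genes. The value of RPL9 is uncertain for the reason given with its counts below.

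Much of the change between libraries was shared by the family. The range of a member's log2 CPM over the 8 libraries had a median of 0.81, and of 0.30 once the library's member median was subtracted. After that subtraction the range exceeded 0.5 in 15 of 82 members, against 79 before it. The widest ranges were those of RPS29 and RPL22L1 (1.05 each), RPL3L (0.95), RPL26L1 (0.91) and RPL9 (0.74). RPL3L, a muscle paralogue of RPL3, was low, at 1.353 to 2.026 CPM.

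**Figure D3:**
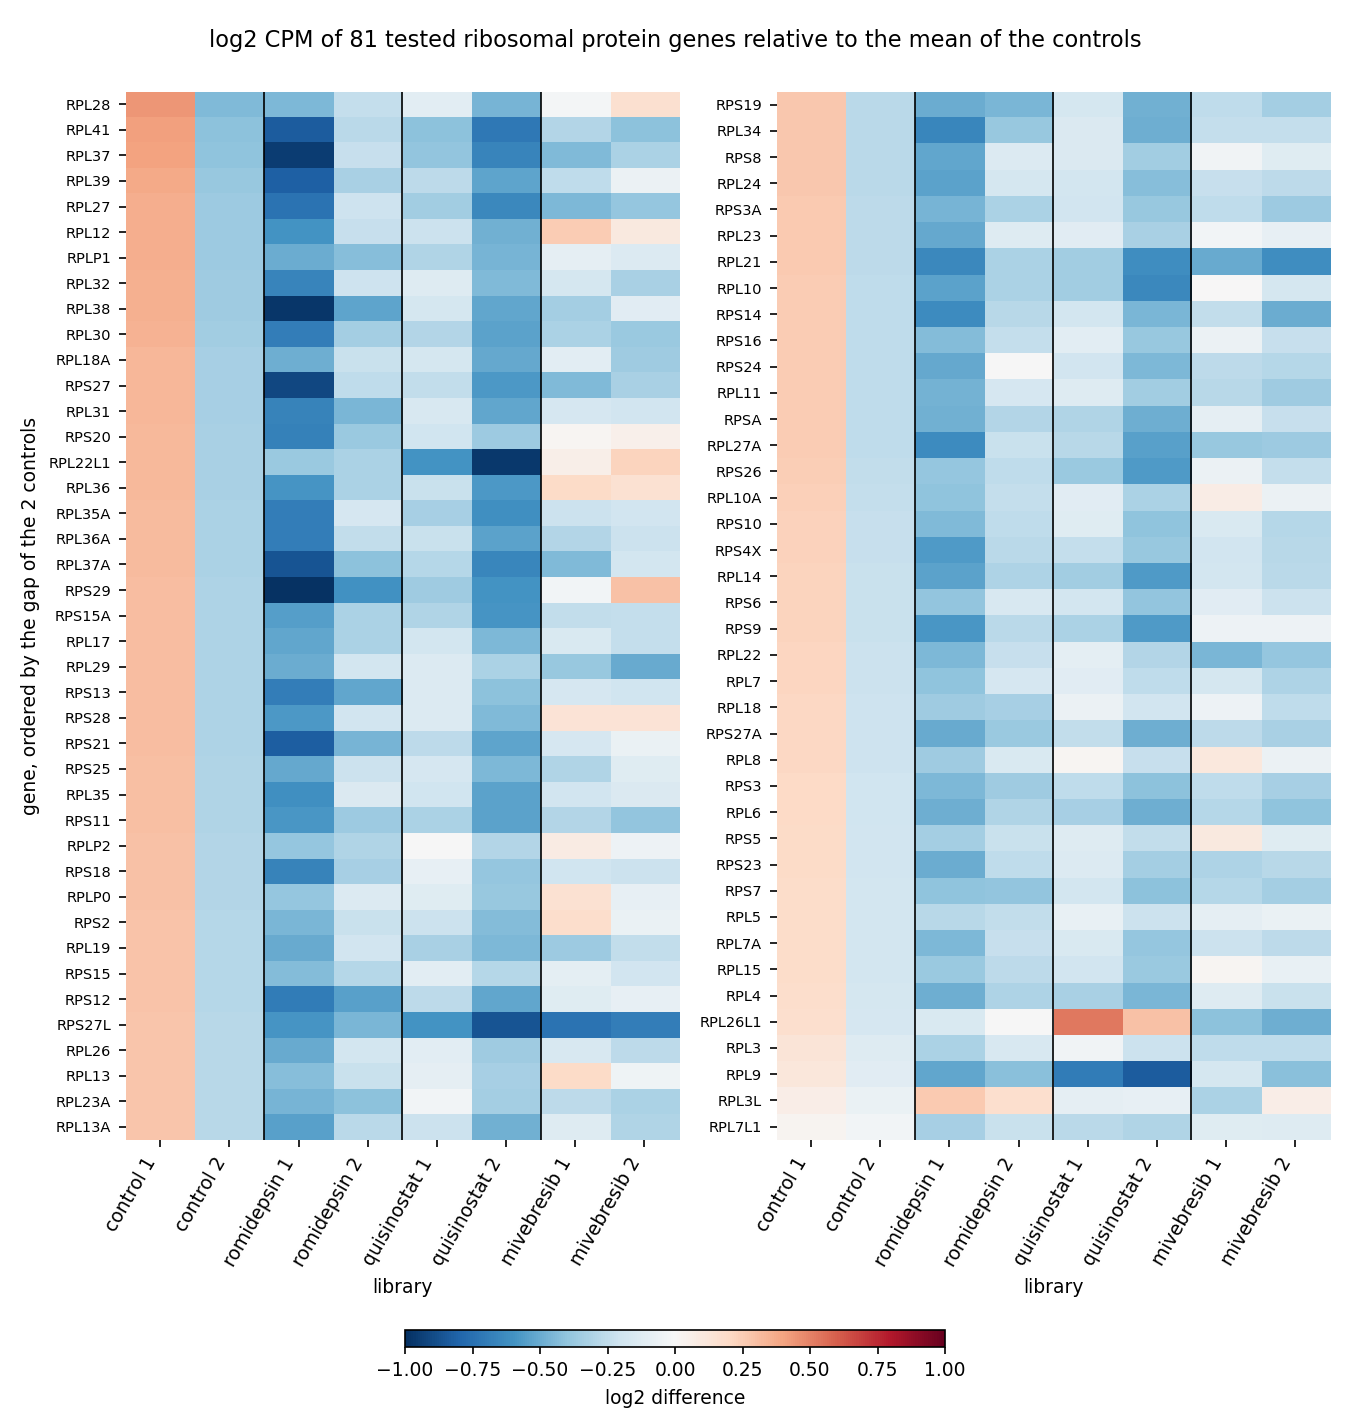
Log2 CPM of 81 of the 82 tested genes (rows, ordered by the gap of the controls) in the 8 libraries (columns), relative to the mean of the 2 controls on the log2 scale; red is higher and blue lower. Columns change together, and the rows of RPS27L, RPL22L1, RPL26L1, RPS29 and RPL9 break the column pattern.

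Romidepsin was compared with the control to see which members an HDAC inhibitor changed. Of the 82 members, 81 had a log2 FC below 0, with a median of -0.41 (median over all genes -0.01). Short genes outside the family were lower too. Other coding genes had medians of -0.27 up to 300 coding bases, -0.22 at 300 to 450 and -0.09 at 600 to 900. Members of those lengths had medians of -0.60, -0.43 and -0.35. At an edgeR adjusted p below 0.05, 13 members were lower (15.9%; 15.8% of all genes tested were called lower) and 0 were higher (15.2% of all genes). At an unadjusted p below 0.05, 44 were lower (22.5% of all genes) and 0 higher (20.6%), and DESeq2 and limma-voom also called 0 higher. None passed the study's threshold, a log2 FC beyond 1.5. The gap between the controls was wider than the log2 FC in 67 of 82 members. Both romidepsin libraries lay below both controls in 46 members (56.1%; 32.5% of all genes) and above both in 1 (31.2%).

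The largest falls with romidepsin were those of RPS29, RPL38 and RPS21, all short proteins. RPS29, a zinc-binding protein of the small subunit, was at 58.38 and 37.88 CPM in the controls and 23.73 and 30.99 with romidepsin. Both treated libraries were below both controls, and the log2 FC was -0.82 (SE 0.218, edgeR adjusted p = 0.0231). RPL38, a protein of the large subunit known for a skeletal patterning phenotype in mice, was at 150.9 and 92.12 in the controls and 60.17 and 81.76 with romidepsin (log2 FC -0.78, SE 0.239, adjusted p = 0.0389). RPS21 was at 93.63 and 61.37 against 42.86 and 55.03 (log2 FC -0.66, SE 0.199, adjusted p = 0.0358). Without control 1 the log2 FC of RPS29, RPL38 and RPS21 was -0.45, -0.35 and -0.30, and none was called. LRR1, which overlaps RPS29 on the opposite strand, fell with all 3 drugs (log2 FC -0.67, -0.98 and -0.69). The other 10 called members, among them RPS12, RPS13, RPS27L, RPL9, RPS27A, RPS3, RPS7, RPL4 and RPL7L1, had log2 FC from -0.65 (RPS12) to -0.27 (RPL7L1). The small subunit (32 tested) gave 9 of the 13 calls and the large subunit (50 tested) 4, beside 15.8% of all genes. Their medians were alike, at -0.42 and -0.41, and a difference between the subunits was not tested.

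With quisinostat the same direction held with a smaller shift. The median log2 FC was -0.34, 81 members were below 0, 11 were called lower (13.4%; 25.1% of all genes) and 1 higher (1.22%; 28%). At an unadjusted p below 0.05, 21 were lower (28.3% of all genes) and 1 higher (30.7%). The gap between the controls exceeded the log2 FC in 72 members. Both libraries lay below both controls in 23 members (28%; 35.8%) and above both in 1, RPL26L1 (1.22%; 38.4%). The share of members called was below the share of all genes in each direction. Besides RPS27L, RPL9, RPL22L1 and RPL7L1, the members called lower were RPL10, RPL21, RPL14, RPL6, RPL4, RPS26 and RPS9. RPL10 was at 2803 and 1963 CPM in the controls and 1839 and 1500 with quisinostat (log2 FC -0.51, SE 0.183, adjusted p = 0.0428; without control 1, -0.24, adjusted p = 0.153).

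On the TMM scale mivebresib gave the smallest shift, with a median log2 FC of -0.24 and 71 members below 0. Its rank beside quisinostat depends on that scale. TMM factors were 0.9617 and 0.9395 in the controls, 1.093 and 1.091 with quisinostat, and 0.9518 and 0.9765 with mivebresib. As shares of all counts, the quisinostat libraries (4.26% and 3.621%) lay on either side of the mivebresib libraries (3.879% and 3.767%). Of the 82 members, 4 were called lower (4.88%; 24.1% of all genes) and 0 higher (22.2%). At an unadjusted p below 0.05, 9 were lower (27.4% of all genes) and 0 higher (26%), and DESeq2 and limma-voom also called 0 higher. The gap between the controls exceeded the log2 FC in 76 members. Both libraries lay below both controls in 18 members (22%; 34.3%) and above both in 0 (35.4%). The 4 were RPS27L, RPL21, RPL26L1 and RPL22. RPL21 was at 169.1 and 117.7 CPM in the controls and 99.26 and 91.71 with mivebresib (log2 FC -0.59, SE 0.181, adjusted p = 0.0273). RPL22, the common gene beside RPL22L1, was at 481.8 and 357.8 against 302.3 and 316.9 (log2 FC -0.44, SE 0.149, adjusted p = 0.0392). Without control 1 the calls of RPL21 (log2 FC -0.30) and RPL22 (-0.21) were lost.

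These counts turned on which control was used. Without control 2, edgeR called 80 members lower after romidepsin, 78 after quisinostat and 62 after mivebresib (22.3%, 28% and 26.4% of all genes), with medians of -0.65, -0.60 and -0.49. Without control 1 it called 2, 3 and 1 lower (13.8%, 26% and 23.6% of all genes), with medians of -0.10, -0.05 and 0.07, and 9 higher with mivebresib (21.8%). In those fits the lone control is assumed to vary like the other groups. Without any 1 of the 6 treated libraries, 0 to 3 members were lower with romidepsin, 2 to 10 with quisinostat and 1 to 3 with mivebresib, while 6.33% to 12.9%, 16.7% to 23.3% and 17.2% to 21.8% of all genes were called lower. Library by library, 80 members of romidepsin library 1 and 78 of quisinostat library 2 lay below both controls, against 46 of romidepsin library 2, 23 of quisinostat library 1, and 24 and 33 of the mivebresib libraries. The share of all genes is not given here for single libraries, so these counts cannot be read as particular to the family. An offset for the trend with coding length, added after the data were seen and fitted on genes outside the family, left medians of -0.25, -0.23 and -0.13. It called 23, 24 and 9 members lower (19%, 27% and 25.9% of all genes), among them all 13, 11 and 4 members called without it. That offset also takes out any effect of a drug that goes with length.

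The 3 proteins of the stalk, which recruits translation factors, and the 5S particle of RPL5 and RPL11 gave no call against the control. RPLP0 was at 1703 and 1139 CPM in the controls, 1067 and 1269 with romidepsin, 1283 and 1069 with quisinostat, and 1546 and 1316 with mivebresib. RPLP1 was at 806.8 and 488.7, then 444.5 and 466.4, 509.6 and 455.6, and 588.6 and 570.7 in the same order. RPLP2 followed at 307.6 and 204.3, then 191.6 and 203.3, 250.2 and 204.3, and 265.3 and 242.4. In all 3 genes every mivebresib library lay between the controls. RPL5 was at 257.2 and 198.8 in the controls and 186.3 to 215.9 in the 6 treated libraries. RPL11 was at 474.1 and 333.9 in the controls and 286.5 to 363.4 with the drugs.

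Members with known roles beyond the core of the ribosome were mostly in step with the family. Of the 13 on that list, 2 were called lower with romidepsin (15.8% of all genes tested). These were RPS3, a DNA repair endonuclease, and RPS27A, which is made as a fusion with ubiquitin. None was called with quisinostat (25.1% of all genes lower, 28% higher) or mivebresib (24.1% and 22.2%). RPS3 was at 666.2 and 505.6 CPM in the controls and 426.1 and 453.5 with romidepsin (log2 FC -0.41, SE 0.134, adjusted p = 0.0462). RPS27A was at 555.4 and 416.5 against 339.9 and 371.4 (log2 FC -0.45, SE 0.145, adjusted p = 0.0453). Without control 1 the values of RPS3 and RPS27A were -0.18 and -0.20, with no call. RPS6, the classical substrate of S6 kinase, was at 1296 and 951.9 in the controls and 845.9 to 1026 with the drugs. RPSA, also known as the laminin receptor, was at 328.5 and 231.6 against 196.3 to 258.8, and the X-linked RPS4X at 566.1 and 412.2 against 326.6 to 422.1. RPS14 and RPS19, known from 5q- syndrome and Diamond-Blackfan anemia, and RPL13A and RPL23 gave no call; their log2 FC ran from -0.50 (RPS19 with romidepsin) to -0.08 (RPL23 with mivebresib).

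Of the 5 tested paralogues, 2 were called lower with romidepsin (15.8% of all genes), 3 with quisinostat (25.1%) and 2 with mivebresib (24.1%). They made up 2 of the 13 falls of the family with romidepsin, 3 of the 11 with quisinostat and 2 of the 4 with mivebresib. The only rise, with quisinostat, was also that of a paralogue (28% of all genes were called higher). RPS27L (15:63125872-63158021, minus strand) was the one member called lower with all 3 drugs. It was at 233.5 and 158.4 CPM in the controls, 128 and 139.8 with romidepsin, 126.8 and 105.5 with quisinostat, and 115.1 and 119 with mivebresib. All 6 treated libraries lay below both controls. The log2 FC was -0.55 with romidepsin (SE 0.17, adjusted p = 0.0398), -0.75 with quisinostat (SE 0.171, adjusted p = 0.00579) and -0.74 with mivebresib (SE 0.171, adjusted p = 0.00735). Without control 1 the romidepsin call was lost (log2 FC -0.22, adjusted p = 0.148). Its common gene RPS27 was at 145.1 and 91.72 CPM in the controls and 61.37 to 97.09 with the drugs, with no call.

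Set against the median member of each library, RPS27L lay at -1.07 and -1.08 log2 units in the controls. It lay at -1.18 and -1.32 with romidepsin, -1.56 and -1.56 with quisinostat, and -1.63 and -1.51 with mivebresib. On this relative scale the controls were alike and all 6 treated libraries were lower. With TMM factors taken from the family alone, an alternative added after the data were seen, its log2 FC was -0.13, -0.41 and -0.51, and none passed the test (adjusted p = 0.661, 0.133 and 0.0778). LACTB, which overlaps RPS27L on the opposite strand, gave no call with any drug (log2 FC -0.06, -0.08 and 0.19).

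RPL26L1 (5:172958729-172969771, plus strand) went up with quisinostat and down with mivebresib. It was at 63.52 and 50.08 CPM in the controls, 50.73 and 56.34 with romidepsin, 81.26 and 69.13 with quisinostat, and 42.35 and 40.28 with mivebresib. The quisinostat libraries were the highest, the mivebresib libraries the lowest, and the romidepsin libraries lay between the controls. Against the control it rose with quisinostat (log2 FC 0.40, SE 0.128, adjusted p = 0.0269) and fell with mivebresib (log2 FC -0.46, SE 0.13, adjusted p = 0.0192), while the value with romidepsin was -0.09 (SE 0.129, adjusted p = 0.642). The quisinostat call was lost without control 2 (log2 FC 0.24, adjusted p = 0.0894) and the mivebresib call without control 1 (log2 FC -0.28, adjusted p = 0.0572). Relative to the family it stood at -2.95 and -2.74 in the controls and at -2.51 and -2.63 with romidepsin, both above both controls. It stood at -2.21 and -2.17 with quisinostat and at -3.08 and -3.07 with mivebresib. Scaled on the family alone it was the only member called against the control, with quisinostat (log2 FC 0.73, SE 0.186, adjusted p = 0.0115). RPL26 itself was at 496.6 and 337 CPM in the controls and 289.1 to 379.7 with the drugs.

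RPL22L1 (3:170864875-170870483, minus strand) was low, with 119 to 262 counts a library. It was at 9.282 and 5.918 CPM in the controls, 5.736 and 5.958 with romidepsin, 4.907 and 3.789 with quisinostat, and 7.717 and 8.668 with mivebresib. Both quisinostat libraries were below both controls (log2 FC -0.81, SE 0.221, adjusted p = 0.0144), romidepsin library 1 was below both as well, and the mivebresib libraries lay between them. The quisinostat call was lost without control 1 (log2 FC -0.45, adjusted p = 0.0656). RPL7L1, a nucleolar factor of large-subunit assembly, had the narrowest control gap of the family, at 162.6 and 156.9 CPM. It was at 127.2 and 137 with romidepsin (log2 FC -0.27, SE 0.0764, adjusted p = 0.0271; without control 1, -0.23, adjusted p = 0.0603), 132.7 and 129.8 with quisinostat (log2 FC -0.28, SE 0.0764, adjusted p = 0.0133), and 146.6 and 146.4 with mivebresib (log2 FC -0.12, adjusted p = 0.214). Scaled on the family alone its values with romidepsin and quisinostat turned to 0.10 and 0.02. The common gene RPL7 was at 2203 and 1642 CPM in the controls and 1439 to 1760 with the drugs, RPL3 at 1254 and 1046 against 921.1 to 1119, and RPL39 at 382 and 226.6 against 166.8 to 282. None of these 3 gave a call, and neither did RPL3L.

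**Figure D4:**
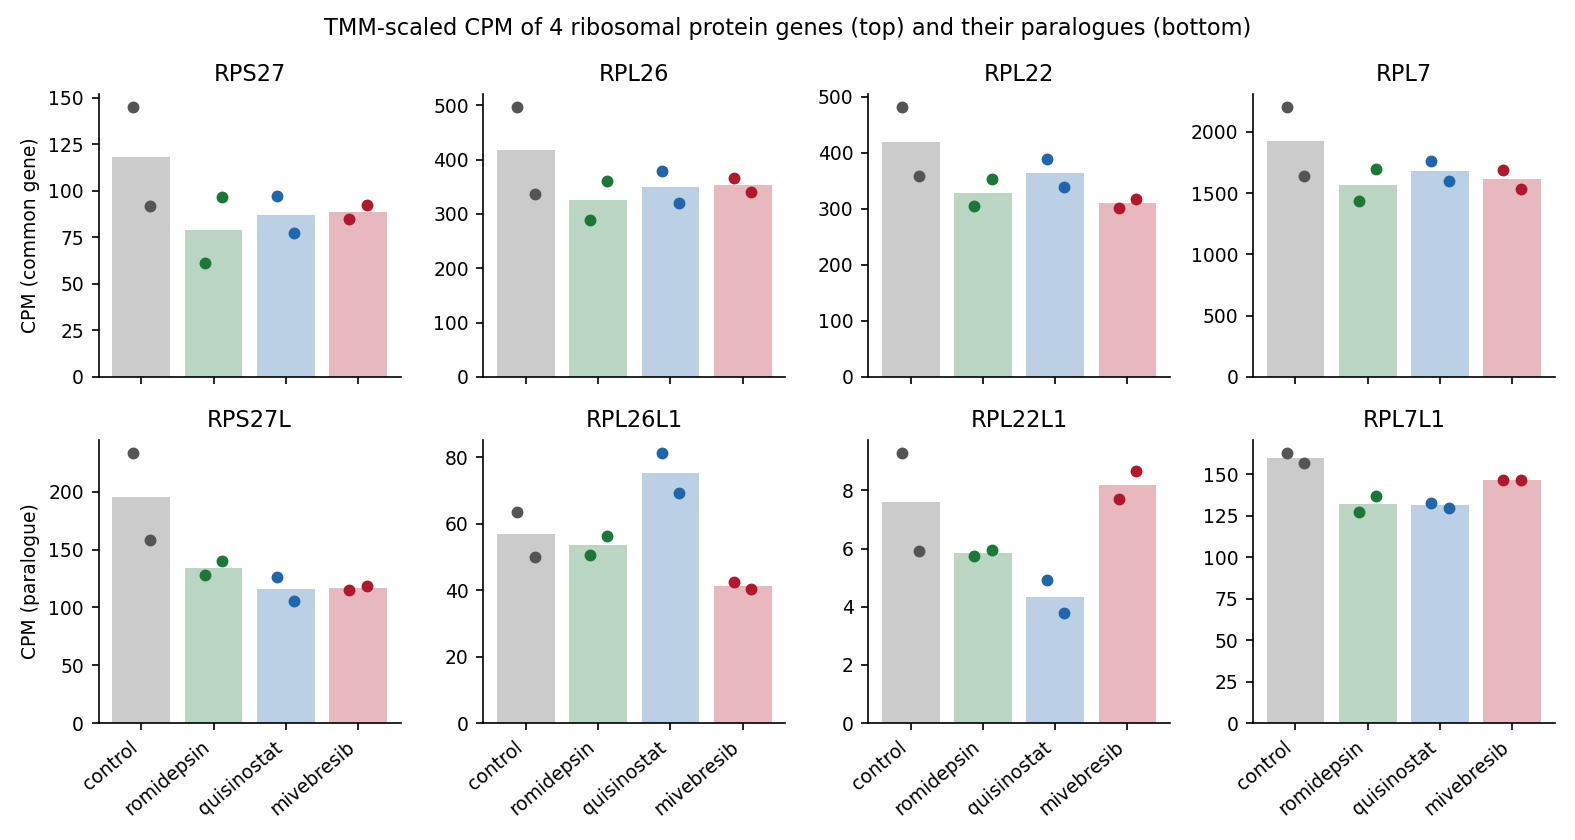
TMM-scaled CPM of RPS27, RPL26, RPL22 and RPL7 (top) and of their paralogues RPS27L, RPL26L1, RPL22L1 and RPL7L1 (bottom); points are the 2 libraries of each group (library 1 at left) and bars their mean, on axes that start at 0. Control library 1 is the highest of all 8 in each top panel, while RPL26L1 is highest with quisinostat, at 69.13 and 81.26 CPM.

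RPL9 (4:39452521-39458949, minus strand) gave the smallest p of the family against the control but cannot be read from its own counts. It was at 57.92 and 49.31 CPM in the controls and 32.99 and 30.09 with quisinostat (log2 FC -0.77, SE 0.116, adjusted p = 0.000698). Its annotated pseudogene RPL9P9, with which it shares near-identical sequence, held 23227 and 16733 counts in the controls where RPL9 held 1635 and 1350. With the counts of all pseudogenes added to their parents, the log2 FC of RPL9 with quisinostat was -0.24 (adjusted p = 0.213) and with romidepsin -0.39 (adjusted p = 0.084). Pseudogene counts also came to 50.9% of the member's own counts for RPL23A and 7.20% for RPS2, and stayed below 1% for every other member. LIAS overlaps RPL9 on the opposite strand and rose with quisinostat (log2 FC 0.53, adjusted p = 0.0165).

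The drugs were also compared with each other, which leaves the control libraries out of the difference. Quisinostat against romidepsin gave 1 member higher (1.22%; 21% of all genes) and 0 lower (14.6%), at a median log2 difference of 0.09. At an unadjusted p below 0.05 there were 1 higher (26.5% of all genes) and 1 lower (18.9%), and DESeq2 and limma-voom also called 0 lower. The 1 member was RPL26L1 (log2 difference 0.49, SE 0.128, adjusted p = 0.0183). Mivebresib against romidepsin gave 4 higher (4.88%; 23.7%) and 1 lower (1.22%; 25.2%), at a median of 0.19. RPS29 had the largest difference, at 46.12 and 57.72 CPM with mivebresib against 23.73 and 30.99 with romidepsin (log2 difference 0.92, SE 0.218, adjusted p = 0.00787). RPL36 (0.62), RPS20 (0.55) and RPS12 (0.52) were also higher, and RPL26L1 was lower (-0.37, SE 0.13, adjusted p = 0.0419).

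Mivebresib against quisinostat gave 4 higher (4.88%; 26.2%) and 1 lower (1.22%; 31.5%), at a median of 0.12 on the TMM scale. RPL26L1 was the 1 lower, by a log2 difference of -0.86 (SE 0.13, adjusted p = 0.000573). RPL22L1 was 1.88-fold higher with mivebresib (log2 difference 0.91, SE 0.22, adjusted p = 0.00708). RPS29 (0.61), RPL36 (0.56) and RPL9 (0.47) were the other 3. For RPL9 the uncertainty from its pseudogene counts applies here and in the next test. No value with those counts added is given for either. A test of any difference among the 4 groups called 9 of 82 members (11%; 74.2% of all genes): RPL9, RPL26L1, RPS27L, RPS29, RPL22L1, RPL7L1, RPS12, RPL21 and RPL36. The spread in these tests comes from all 4 groups, the wide control pair included. Fitted on the 4 libraries of the comparison alone, mivebresib gave 25 members higher than romidepsin (28.3% of all genes) and 24 higher than quisinostat (32.2%).

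Other genes of protein synthesis were set beside the family from lists fixed by function. For comparison, 15.2% of all genes tested rose and 15.8% fell with romidepsin. The shares were 28% and 25.1% with quisinostat, and 22.2% and 24.1% with mivebresib. Of the 4 listed genes that also code for ribosome components or fusions with them, only FAU was called, lower with romidepsin (log2 FC -0.38, adjusted p = 0.0499). Of 24 translation factors and other 5′ TOP mRNAs, 6 fell and 0 rose with romidepsin, 11 fell and 0 rose with quisinostat, and 7 fell and 1 rose with mivebresib, with medians of -0.25, -0.33 and -0.18. EEF1B2, an exchange factor of elongation, fell with all 3 drugs (log2 FC -0.40, -0.46 and -0.43). EIF3F, a subunit of initiation factor 3, fell with romidepsin (-0.39) and most with mivebresib (-0.96), and EIF4A2, an initiation helicase, was the 1 that rose (0.84 with mivebresib). HNRNPA1 fell with quisinostat (-0.59) and mivebresib (-0.65), and VIM fell with quisinostat (-0.73). The median gap of the controls over the 24 was -0.23, against -0.55 in the ribosomal protein genes.

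Ribosome assembly factors gave calls in both directions with romidepsin and mivebresib, and almost only falls with quisinostat. Of 80 tested, 8 rose and 16 fell with romidepsin (15.2% and 15.8% of all genes). With quisinostat 1 rose and 42 fell (28% and 25.1%), and with mivebresib 17 rose and 12 fell (22.2% and 24.1%). Their medians were -0.08, -0.28 and -0.03, and their median gap between the controls was -0.01. DKC1, the pseudouridine synthase of rRNA, was at 8328 and 7797 counts in the controls and 4143 and 3886 with quisinostat (log2 FC -1.19, SE 0.078, adjusted p = 8.27e-06). NCL, which encodes nucleolin, was at 29657 and 32765 counts in the controls, 23596 and 23970 with romidepsin (log2 FC -0.46), 16655 and 16621 with quisinostat (-1.09) and 39417 and 39360 with mivebresib (0.35). NOP56 and BOP1 rose with mivebresib (0.67 each), and GAR1, a partner of DKC1, fell (-1.35). WDR3 (0.55) and DDX10 (0.45) rose and SBDS (-0.39) fell with romidepsin, LAS1L rose with quisinostat (0.30), and BRIX1 fell with mivebresib (-0.45).

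Of 14 tested genes of RNA polymerase I and its factors, 3 rose and 3 fell with romidepsin (15.2% and 15.8% of all genes). With quisinostat 2 rose and 6 fell (28% and 25.1%), and with mivebresib 4 rose and 2 fell (22.2% and 24.1%). UBTF, which activates rRNA transcription, fell with all 3 drugs, from 2634 and 2615 counts in the controls to 1465 to 1662 (log2 FC -0.86, -0.89 and -0.66). ZNRD1, a polymerase subunit, fell with mivebresib (-1.51), and POLR1B rose with each drug (0.46, 0.20 and 0.44). TWISTNB rose with romidepsin (0.70) and quisinostat (0.44), TAF1A rose with mivebresib (0.52), TAF1B fell with romidepsin (-0.47) and TTF1 with quisinostat (-0.51). Only 2 of 16 listed hosts of small nucleolar RNAs were matched, of which TAF1D fell with quisinostat (-0.31) and rose with mivebresib (0.35).

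Among 26 regulators of ribosome synthesis, 4 rose and 8 fell with romidepsin (15.2% and 15.8% of all genes). With quisinostat 1 rose and 12 fell (28% and 25.1%), and with mivebresib 4 rose and 3 fell (22.2% and 24.1%). MYC, which drives transcription of many of these genes, was at 2880 and 2760 counts in the controls. It was at 3446 and 3503 with romidepsin (log2 FC 0.24, SE 0.0702, adjusted p = 0.0343), 1959 and 1942 with quisinostat (-0.71, SE 0.071, adjusted p = 7.39e-05), and 4799 and 4806 with mivebresib (0.78, SE 0.0704, adjusted p = 5.63e-05). MTOR gave no call with any drug (-0.16, -0.20 and 0.21), and LARP1 fell with quisinostat (-0.52, adjusted p = 0.00582). GABPA fell with romidepsin (-0.97) and TBPL1 rose with both HDAC inhibitors (0.97 and 0.56). ZNF622 rose with romidepsin (0.37), TSC1 rose with mivebresib (0.49), and AKT1S1 fell with quisinostat (-1.13). LARP4, an mRNA-binding protein, fell with mivebresib (-0.61).

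The 78 genes of the mitochondrial ribosome, a separate particle with its own proteins, gave medians of -0.30, -0.27 and -0.20 with romidepsin, quisinostat and mivebresib. Of these, 2 rose and 18 fell with romidepsin (15.2% and 15.8% of all genes). With quisinostat 6 rose and 29 fell (28% and 25.1%), and with mivebresib 2 rose and 27 fell (22.2% and 24.1%). Their median gap between the controls was -0.33, narrower than that of the cytosolic family.

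**Figure D5:**
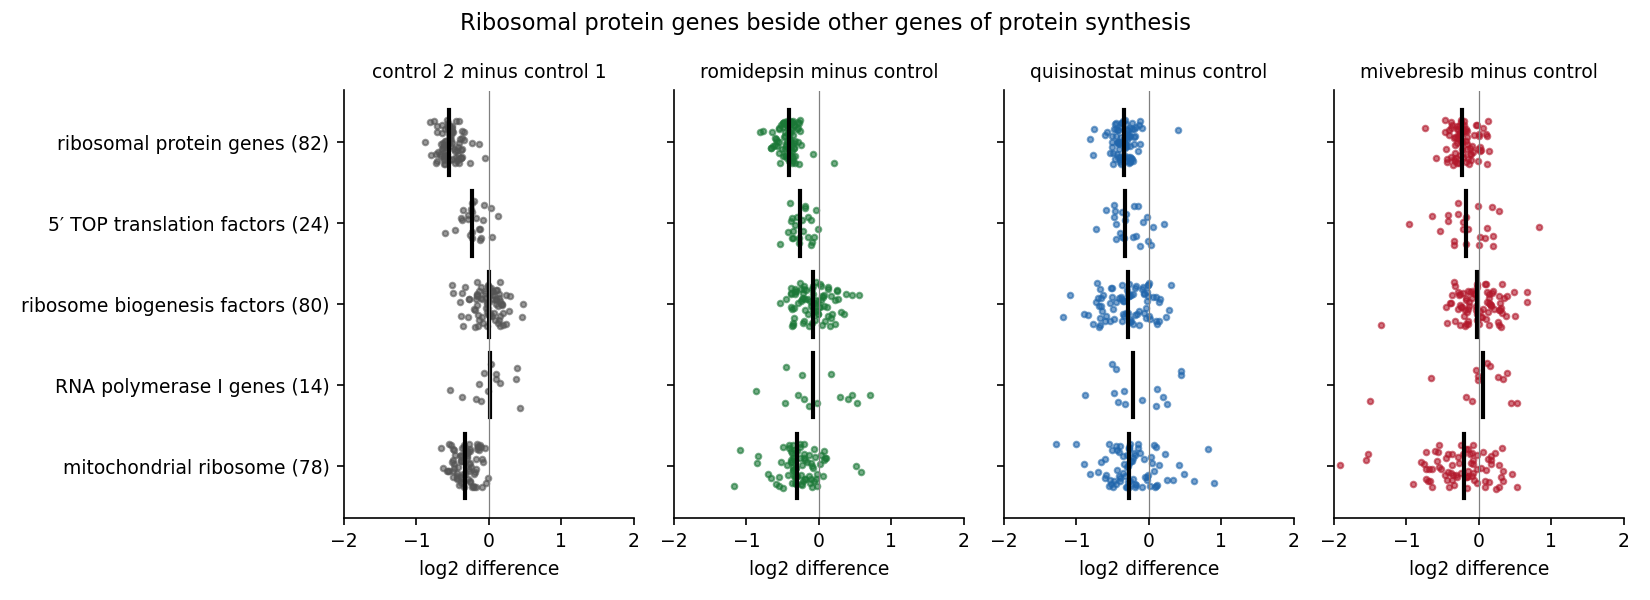
Log2 difference of single genes (points) in 5 lists, with the number of genes tested in brackets and the median as a black bar, for control library 2 against library 1 and for each drug against the mean control. The ribosomal protein genes all lie below 0 in the control panel and mostly below 0 in the drug panels (medians -0.55, -0.41, -0.34 and -0.24), while assembly factors spread around their median.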

How the data were processed

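Culture wells (2 per group) of MP38 cells gave strand-specific mRNA libraries. The authors analysed the reads with BioJupies and deposited raw counts per gene symbol; the build is hg38 per the submitters' processing notes, and the aligner and the strand setting of the counting are not given in the sources used here, so overlapping genes and pseudogenes are uncertain. The authors' log CPM and quantile-normalized tables were not used. All 8 libraries entered 1 edgeR 4.0.16 model in R 4.3.3 (TMM, filterByExpr, quasi-likelihood test, Benjamini-Hochberg adjustment over 15085 genes). A call is an adjusted p below 0.05, SE is that of the fit, and log2 CPM used a prior count of 2. Alternatives were DESeq2 1.42.0, limma-voom (limma 3.58.1), other scalings, filters and thresholds, added pseudogene counts, a replicate block and each library left out. Scripts were tested on simulated data. Positions and coding lengths came from GENCODE 29 (GRCh38). The members, lists and tests were chosen with earlier results of these data known. Members named are paralogues and their common genes, the listed roles, the 3 widest control gaps, the 3 highest levels and, among members averaging 3 or more in log2 CPM, the 3 largest called changes per drug and direction; of other lists, the 2 largest called changes each way. Other members were named after their values were seen, and some genes of these lists are not reported here.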

Additional observations from a re-analysis of the deposited data

How the results depend on the processing

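With 2 libraries per group the precision is limited, and the spread is estimated from all 8 libraries, the wide control pair included. Members below the threshold are not shown to be unchanged. Members lower with romidepsin and quisinostat numbered 28 and 25 with DESeq2, 3 and 2 with library size alone, and 3 and 3 with upper-quartile factors. They numbered 5 and 3 at a mean CPM of at least 5, and 0 and 2 on the 4 libraries of each comparison (7.9% and 19.6% of all genes). What made the settings differ was not tested. The share of all genes called is not given here for DESeq2, library size, upper-quartile factors, the CPM filter and the stricter threshold. The counts under those settings cannot be set against it. For the same 5 settings the test among 4 groups called 28, 4, 5 and 5 members (no such test on 4 libraries). DESeq2 called 7 members higher with mivebresib than romidepsin and 7 than quisinostat, library size alone 1 and 1 (and 2 lower than quisinostat), upper-quartile factors and a mean CPM of at least 5 gave 2 each than quisinostat. The 4-library fits called 0 higher with quisinostat (25.5% of all genes). For quisinostat against romidepsin they gave 2 higher (25.3%) and 2 lower (24%). With mivebresib they gave 25 higher (28.3%) and 2 lower (29.8%) than romidepsin, and 24 higher (32.2%) and 2 lower (34.8%) than quisinostat. At an adjusted p below 0.01 the members lower were 0, 2 and 1 with romidepsin, quisinostat and mivebresib, 0 were higher with quisinostat, 0 higher with quisinostat than romidepsin, 1 higher and 0 lower with mivebresib than romidepsin, 2 higher than quisinostat, and 3 differed among the groups.

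The length-dependent offset was chosen after seeing the data. It called 23, 24 and 9 members lower with romidepsin, quisinostat and mivebresib (19%, 27% and 25.9% of all genes). It called 4 lower with quisinostat than romidepsin (17.4%), and 29 among the 4 groups (share of all genes not given here). With mivebresib it called 15 higher and 2 lower than romidepsin (26.9% and 27.4%), and 14 higher and 2 lower than quisinostat (28.8% and 34%). TMM on members only, also chosen then, called 0 lower with each drug (0.643%, 3.24% and 8.03% of all genes). It called 0 higher with quisinostat than romidepsin (6.78%). It called 1 higher with mivebresib than romidepsin (5.95%), 1 than quisinostat (6.9%) and 2 among the groups (share of all genes not given here). This scaling sets the family's own change to about 0. The medians were -0.0077 with romidepsin and 0.0035 with quisinostat, and RPL7L1 turned to 0.0992 with romidepsin and 0.0238 with quisinostat. The share of counts with mivebresib was 4.01% without mitochondrially encoded counts and 3.91% with pseudogene counts added.

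With 1 library left out in turn, members lower ran from 0 to 80 with romidepsin, 2 to 78 with quisinostat and 1 to 62 with mivebresib; members higher ran from 0 to 1 with quisinostat and 0 to 9 with mivebresib. The direct comparisons ran from 0 to 4 higher and 0 to 3 lower for quisinostat than romidepsin, 0 to 26 higher and 0 to 1 lower for mivebresib than romidepsin, and 0 to 21 higher and 1 to 2 lower for mivebresib than quisinostat. Members that differ among the groups ran from 4 to 81. In these fits the share of all genes is not given here for the direct comparisons and the test among the groups. Their counts cannot be set against it. The medians ran from -0.65 to -0.10 with romidepsin, -0.60 to -0.05 with quisinostat and -0.49 to 0.0656 with mivebresib. The highest of these counts of lower members came without control 2, and without romidepsin library 1 no member was called lower with romidepsin.

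The replicate numbers are shared but do not pair the samples (correlations of deviations from -0.16 to 0.16). With the replicate number as a block, 12, 13 and 5 members were lower with romidepsin, quisinostat and mivebresib, and the medians were -0.40, -0.33 and -0.23. The share of all genes called is not given here for the block, so its counts cannot be set against it. Of 21 alternatives, the romidepsin call of RPS27L was lost under 13, its quisinostat call under 1 and its mivebresib call under 2.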
